A study of Homo sapiens with 22 samples.

Results

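The array measured 65526 transcript clusters, its units for a transcribed region, and 2607 of them have an ID that starts with TC08. The pair of characters after TC is the chromosome code in the array maker's naming, so these are the clusters it assigned to chromosome 8. The files give no coordinates, genome build or gene names, so the assignment could not be checked here, and clusters are described by their ID and by their place in ID order, from 1 to 2607. Their ID numbers run from 1 to 2638, and 31 numbers in between were not among the clusters analysed here. Chromosome code 08 was selected on earlier results of these data, and which comparison led to the choice is not recorded. Counts over the members are therefore descriptions and carry no test of their own.

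JHOC9 and JHOC5 are established human cell lines of ovarian clear cell carcinoma. Each was infected in 35 mm dishes with 1 of 3 lentiviruses, which gave 22 arrays in 6 groups. Each line has 5 arrays with the NT control virus, 3 with the SPINK1 KD #9 virus and 3 with the IL-6 KD#58 virus, so 1 virus stands for each targeted gene. SPINK1 encodes a secreted trypsin inhibitor and IL-6 an inflammatory cytokine. JHOC9 was kept in 20% and JHOC5 in 10% fetal bovine serum, so line and serum cannot be told apart. Titles tie each NT array to an experiment lettered A to E, while a knockdown array carries only a replicate letter. Nothing in the labels says that replicates were separate cultures, so every p-value reflects spread between arrays, and part or all of that spread may be technical. Because IDs are not paired with names, neither the targeted genes nor markers of the tissue were analysed here, and the extent of knockdown is unknown.

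Chromosome 8 is a large autosome that is often rearranged in epithelial cancers, including ovarian carcinomas, where gains of its long arm and losses of its short arm are common. A gain or loss changes the dose of many neighbouring genes at once, and genes that lie side by side can also share a chromatin environment, so neighbours are often examined together. This is background: the arrays measured RNA, not copy number, and neither arm could be assigned to a range of IDs here.

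The TC08 clusters were slightly dimmer than the array as a whole. Their median level, a mean log2 signal over the 22 arrays, was 4.64, against 4.87 for all clusters, and 50.6% of them exceeded the median of the array on 3 or more arrays, against 53.9%. Whole arrays had log2 medians from 4.78 to 4.95. The mean of the TC08 clusters minus the mean of all clusters lay between -0.178 and -0.156 on the 11 JHOC9 arrays. On the 11 JHOC5 arrays it lay between -0.161 and -0.125, and these ranges overlap through the IL-6 KD groups alone. The NT arrays, at -0.1755 to -0.162 in JHOC9 and -0.1518 to -0.1246 in JHOC5, do not overlap. Nor do the SPINK1 KD arrays, at -0.1782 to -0.1626 and -0.148 to -0.1429. Within groups, the median SD of a TC08 cluster was 0.0894 to 0.114 on the log2 scale, against 0.0907 to 0.117 over all clusters. Values of 9 members repeated those of another member on all arrays, and 8 members had the values of a cluster with another code.

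The largest contrast among these clusters was between the lines themselves. In the NT arrays, 460 TC08 clusters were higher and 402 lower in JHOC9 than in JHOC5 (limma, adjusted p under 0.05 over all clusters). That is 17.6% and 15.4% of the members, against 17% and 13% of all clusters. The median log2 difference of the called members was 0.41 for the higher and -0.61 for the lower ones, against 0.38 and -0.47 over all clusters called. Which direction held more members turned with the scaling. With arrays centred on their median, 356 members were higher and 451 lower, and after cyclic loess 375 and 465. Counts of all clusters under these scalings are not given here, so whether the turn is particular to the members is not shown.

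Large differences were fewer. At least 4-fold, 13 members were higher and 19 lower in JHOC9, which is 0.499% and 0.729% of the members, against 0.589% and 0.543% of all clusters. Over all 2607 members, the 5th percentile of the log2 line difference was -0.88, against -0.59 for all clusters, and the 95th percentile was 0.65, against 0.58. The lower tail was thus longer among the members than over the array.

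TC08001402.hg.1 and TC08002413.hg.1 had the largest rises. The log2 signal of TC08001402.hg.1 was 9.80, 9.48, 9.88, 9.35 and 9.93 on the JHOC9 NT arrays and 3.45, 3.14, 3.38, 3.55 and 3.41 on the JHOC5 NT arrays. The JHOC5 values lie under every array median, and the groups are far apart. Its log2 difference was 6.30 ± 0.15 (SE), with a limma adjusted p of 7.09e-18. TC08002413.hg.1 was bright in JHOC9, at 12.37, 12.17, 12.39, 11.93 and 12.34, and stood at 6.41, 6.67, 6.21, 6.0 and 6.28 in JHOC5. Here the JHOC5 signal was itself above the array median. The difference was 5.92 ± 0.13, with a limma adjusted p of 1.23e-18.

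TC08000256.hg.1 and TC08000500.hg.1 had the largest falls. TC08000256.hg.1 read 4.10, 4.02, 4.08, 4.27 and 4.09 on the JHOC9 NT arrays and 7.26, 7.60, 7.58, 7.69 and 7.93 on the JHOC5 NT arrays, a log2 difference of -3.50 ± 0.12 (SE, limma adjusted p of 2.11e-15). TC08000500.hg.1 read 3.24, 3.41, 3.21, 3.16 and 3.19 in JHOC9 and 6.36, 6.12, 6.76, 6.81 and 6.61 in JHOC5, a difference of -3.29 ± 0.17 (limma adjusted p of 2.18e-12). Both were dim in JHOC9 and above the array median in JHOC5, with no overlap.

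The same lines were compared again on the knockdown arrays, none of which is an NT array. On the SPINK1 KD arrays 343 members were higher and 343 lower in JHOC9, each 13.2% of the members, against 12.1% and 10.7% of all clusters. On the IL-6 KD arrays 384 were higher and 332 lower, 14.7% and 12.7%, against 14.2% and 11.1%. With arrays centred on their median the IL-6 KD arrays gave 264 higher and 398 lower members, and after cyclic loess 297 and 390. Here too the counts of all clusters are not given. Log2 line differences of the 2607 members correlated at r = 0.932 between the NT and SPINK1 KD arrays and at r = 0.957 between the NT and IL-6 KD arrays. The points share the probes and the pair of lines, so these correlations describe the members and are given without a p.

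In all 3 comparisons of the lines 489 members were called in the same direction, 233 higher and 256 lower in JHOC9, which is 18.8% of the members, against 15.9% of all clusters. The 3 comparisons share no array, but they share 1 estimate of the spread per cluster. Of these members, 11 were at least 4-fold higher and 12 at least 4-fold lower each time, 0.422% and 0.460% of the members, against 0.392% and 0.333% of all clusters. The 11 had JHOC5 NT means from 3.39 to 7.42 on the log2 scale, 5 of them below the lowest array median, and JHOC9 NT means from 6.69 to 12.2. The 12 had JHOC9 NT means from 3.24 to 6.74, 4 of them below it, and JHOC5 NT means from 6.53 to 9.69. The 11 lay between places 563 and 2382 and the 12 between places 123 and 2582, and 1 pair among the 11 and 0 among the 12 were immediate neighbours.

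TC08001402.hg.1 and TC08002413.hg.1 differed between the lines on these arrays too. For TC08001402.hg.1 they were 6.12 ± 0.20 with the SPINK1 KD virus and 5.86 ± 0.20 with the IL-6 KD virus, and for TC08002413.hg.1 they were 5.94 ± 0.17 and 5.65 ± 0.17. TC08000256.hg.1 gave -2.92 ± 0.16 and -3.19 ± 0.16, and TC08000500.hg.1 gave -2.35 ± 0.22 and -2.10 ± 0.22, each closer to 0 than on the NT arrays. These clusters were picked for the size of their NT difference, and that choice alone favours smaller values on other arrays.

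**Figure D1:**
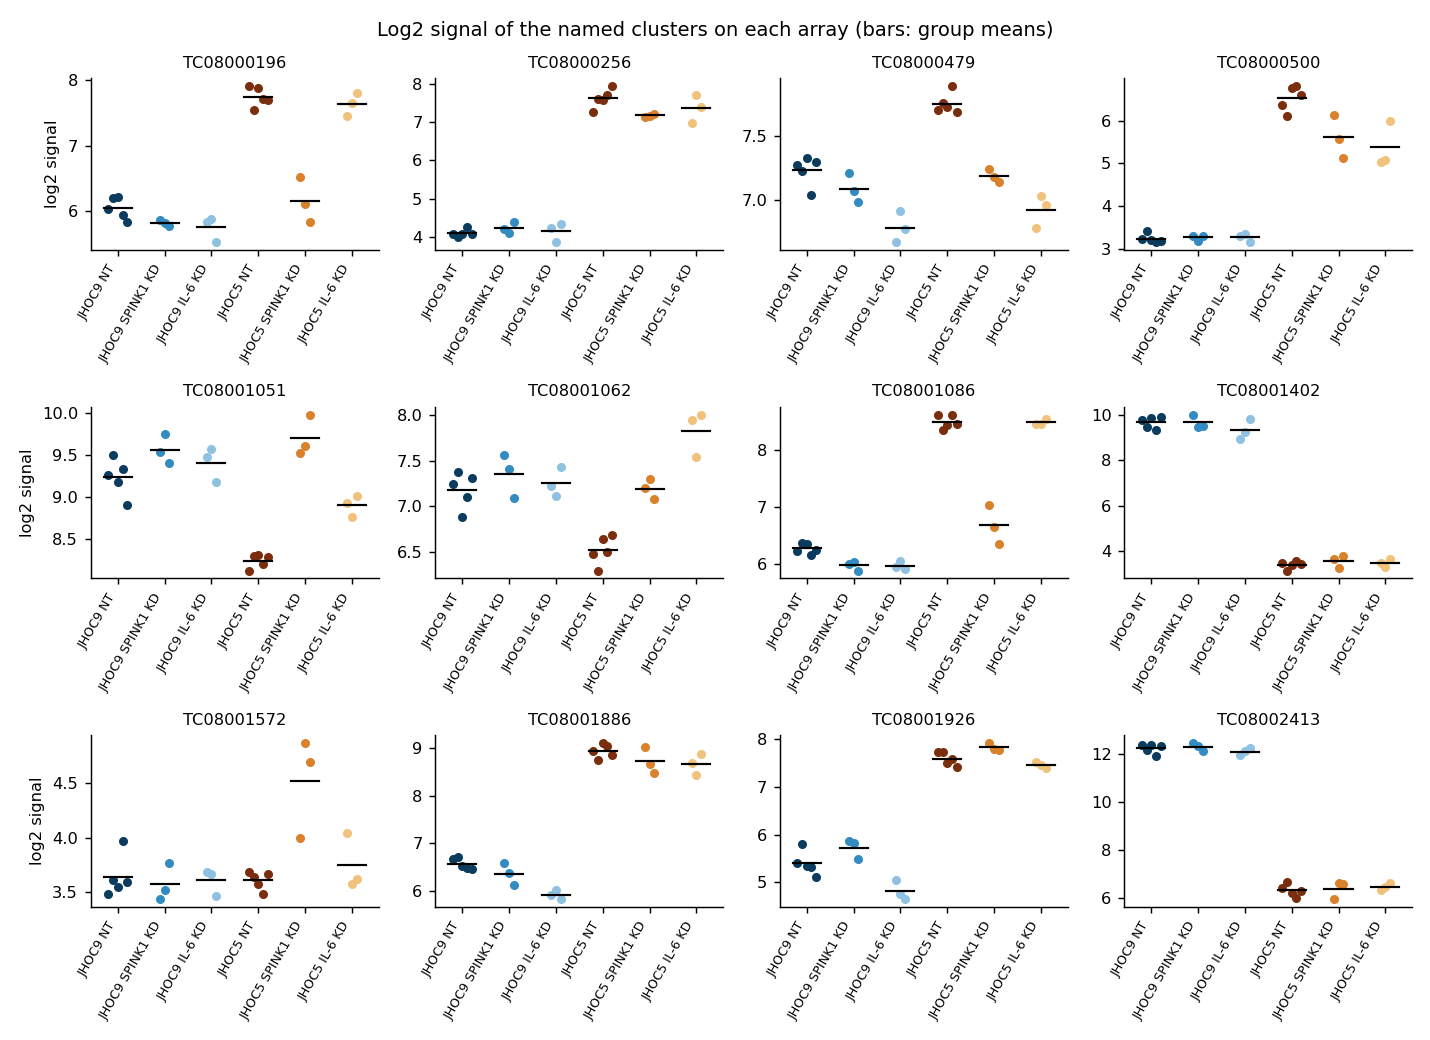
Log2 signal (vertical axis, a scale of its own in each panel) of the 12 named TC08 clusters on each of the 22 arrays, 1 point per array and a bar at the group mean, for the 6 groups on the horizontal axis. TC08001402 and TC08002413 separate the lines by about 6 log2 units whatever the virus, while TC08001086 and TC08000196 stand apart in JHOC5 and drop on its SPINK1 KD arrays.

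Set beside the other autosome codes, code 08 stood among the higher ones. The share of its clusters called in the NT arrays, 33.1%, ranked 5 of 22 codes, whose shares ran from 23.2% to 40.9%. On the SPINK1 KD arrays it ranked 2 and on the IL-6 KD arrays 7. The median log2 line difference of the members in NT was 0.05, as over all clusters, and the medians of the codes ran from 0 to 0.13. Called clusters of code 08 were thus split between the directions, as the plot of calls by code shows. A brighter cluster was called more often: with the clusters divided by signal level into 3 classes of equal size over the array, from dim to bright, 13.9%, 34.6% and 54.9% of members were called, against 12.2%, 27.4% and 50.7% of all clusters.

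**Figure D2:**
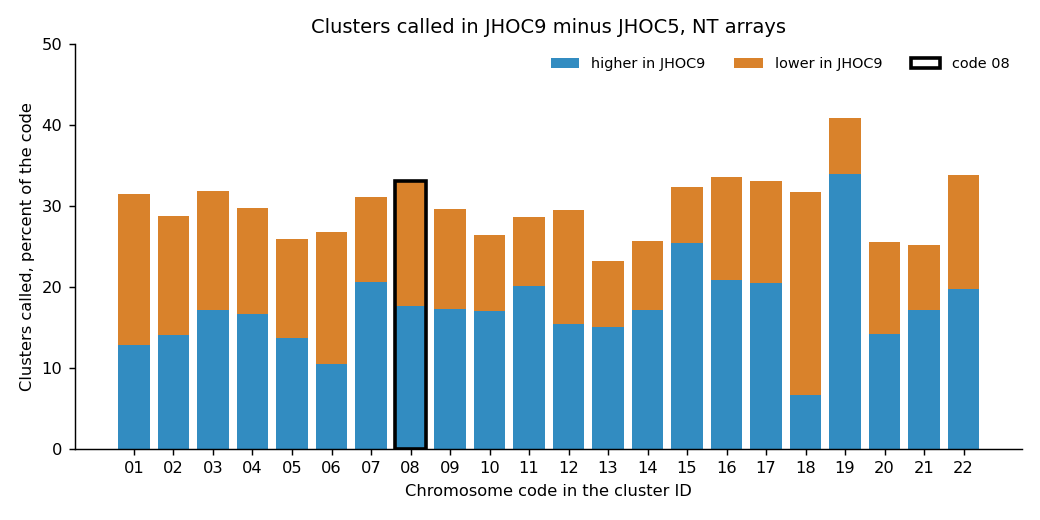
Percent of clusters called in JHOC9 minus JHOC5 on the NT arrays (vertical axis) for each of the 22 autosome codes (horizontal axis), split into higher (lower segment of the bar) and lower in JHOC9 (upper segment). Code 08, outlined, had 17.6% higher and 15.4% lower, a total of 33.1%.

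Read in ID order, the line difference rose and fell along the members. They were cut into 53 blocks of 50 consecutive clusters, the last with 7. Block medians of the NT line difference ran from -0.05 in block 5, places 201 to 250, to 0.17 in block 17, places 801 to 850. In block 17, 23 clusters were higher in JHOC9 and 0 lower. Blocks 34 and 35, places 1651 to 1750, held 18 and 19 higher clusters and 1 lower cluster each. In block 37, places 1801 to 1850, 1 was higher and 22 were lower, and in block 22, places 1051 to 1100, 2 were higher and 18 lower. The highest blocks were also bright: median levels were 6.82, 6.33 and 6.46 in blocks 17, 34 and 35, against 4.64 for all members. Over the 53 blocks, the median level and the median difference correlated at r = 0.414, a description over blocks of the same arrays, and the part of the level in the block pattern was not tested.

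Block means were set beside the mean of all members on each array. The mean of block 17 minus the mean of all members lay between 1.93 and 2.12 on the JHOC9 arrays and between 1.75 and 1.94 on the JHOC5 arrays, ranges that overlap through 1 value or more of the IL-6 KD groups, while the NT arrays alone, at 1.95 to 2.07 and 1.75 to 1.86, do not overlap. For block 37 it lay between -0.34 and -0.28 in JHOC9 and between 0.06 and 0.22 in JHOC5, with no overlap. On the same scale block 5 lay between -0.09 and -0.04 in JHOC9 and between 0.19 and 0.25 in JHOC5. Blocks 34 and 35 were higher in JHOC9, with NT means of 1.54 ± 0.03 and 1.62 ± 0.05 (SD, n = 5), than in JHOC5, with 1.28 ± 0.04 and 1.39 ± 0.03. Blocks 37, 5, 34, 35 and 17 were picked for their NT values, so these means describe them.

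The same blocks were compared on the knockdown arrays. Block medians of the NT line difference correlated at r = 0.803 with those of the SPINK1 KD arrays and at r = 0.789 with those of the IL-6 KD arrays, over 53 blocks. Of the 53 blocks, 34 lay on the same side of the members' median in all 3 comparisons, 15 above and 19 below. Neither this count nor the correlations are set beside other codes here, so they describe the members only. Block 17 had medians of 0.08 and 0.18 on the SPINK1 KD and IL-6 KD arrays, and block 37 of -0.15 and -0.07. The offset between the 3 profiles follows the members' medians, which were 0.05 in NT, -0.02 in SPINK1 KD and 0.08 in IL-6 KD.

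**Figure D3:**
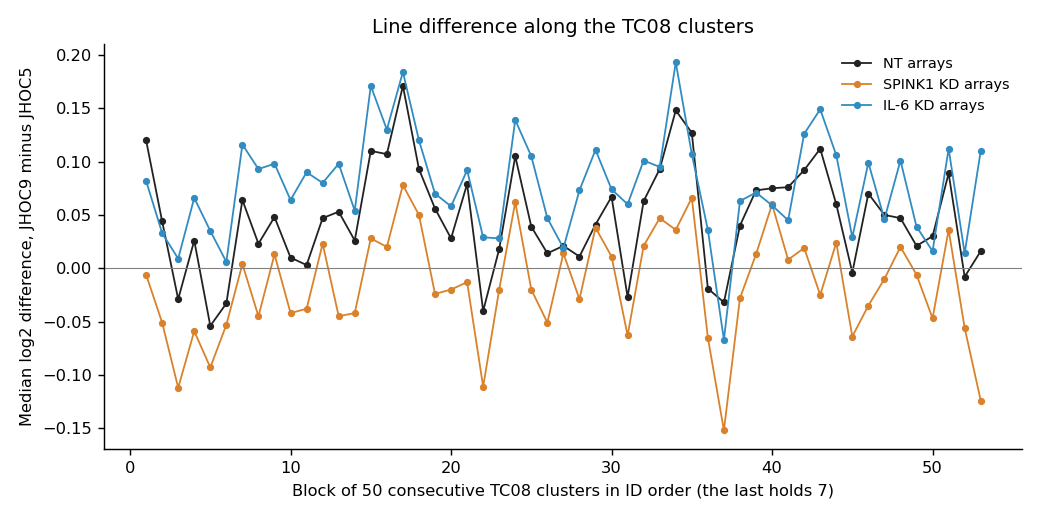
Median log2 difference JHOC9 minus JHOC5 (vertical axis) in 53 blocks of consecutive TC08 clusters (horizontal axis, ID order), for the NT, SPINK1 KD and IL-6 KD arrays. The NT profile is highest in block 17, at 0.17, and lowest in block 5, at -0.05, and block 17 stands at 0.08 and 0.18 on the SPINK1 KD and IL-6 KD arrays.

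Neighbours called in the same direction formed runs. A run was at least 3 consecutive clusters in ID order, all called and all in 1 direction. The NT comparison of the lines had 63 runs among the members, 34 higher and 29 lower in JHOC9. They held 221 clusters, 8.48% of the members, against 6.61% of the clusters of the other 21 autosome codes, or 24.2 against 17.6 runs per 1000 clusters, and code 08 ranked 3 of 22 by the share in runs. Most were short: 41 had 3 clusters, 16 had 4, 4 had 5, 1 had 6 and 1 had 8. In all 63 the clusters had distinct values, and in 39 at least 1 cluster had a mean level under the lowest array median. Of the 63 runs, 28 were called whole in the same direction on the SPINK1 KD arrays and 20 on the IL-6 KD arrays. These repeats are not set beside other codes. Those arrays gave 41 and 36 runs of their own, or 15.7 and 13.8 per 1000 members. The other autosome codes had 9.47 and 11.3 per 1000 clusters. By the share in runs code 08 ranked 3 on the SPINK1 KD arrays and 7 on the IL-6 KD arrays. On the IL-6 KD arrays that share, 4.565%, was near the 4.279% of the other autosome codes.

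The longest run higher in JHOC9 had 8 clusters at places 728 to 735. Its mean log2 signal was 6.06, 5.86, 5.94, 5.87 and 5.90 on the JHOC9 NT arrays and 5.11, 5.03, 5.03, 5.07 and 5.12 on the JHOC5 NT arrays, with no overlap. Log2 differences of its clusters ran from 0.28 to 1.92 with a median of 0.78. Its first cluster led, at 9.36 ± 0.25 (SD, n = 5) in JHOC9 and 7.44 ± 0.19 in JHOC5. On the knockdown arrays the run mean lay between 5.71 and 6.11 in JHOC9 and between 5.01 and 5.14 in JHOC5, and places 728 to 732 were called again as 5 clusters with each virus.

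The longest run lower in JHOC9 had 6 clusters at places 2451 to 2456. Its mean was 5.14, 4.86, 4.93, 5.04 and 5.02 on the JHOC9 NT arrays and 5.86, 5.91, 5.99, 6.19 and 6.11 on the JHOC5 NT arrays. Differences of the clusters ran from -0.76 to -1.36 with a median of -0.98. The whole run was called again on the SPINK1 KD arrays, with a median of -0.73, and its first 4 clusters on the IL-6 KD arrays, with a median of -0.85. In JHOC5 the mean was lower on some knockdown arrays: it was 5.96, 5.69 and 5.34 with the SPINK1 KD virus and 5.36, 5.84 and 5.94 with the IL-6 KD virus, and 2 of its clusters were called lower with the SPINK1 KD virus there.

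**Figure D4:**
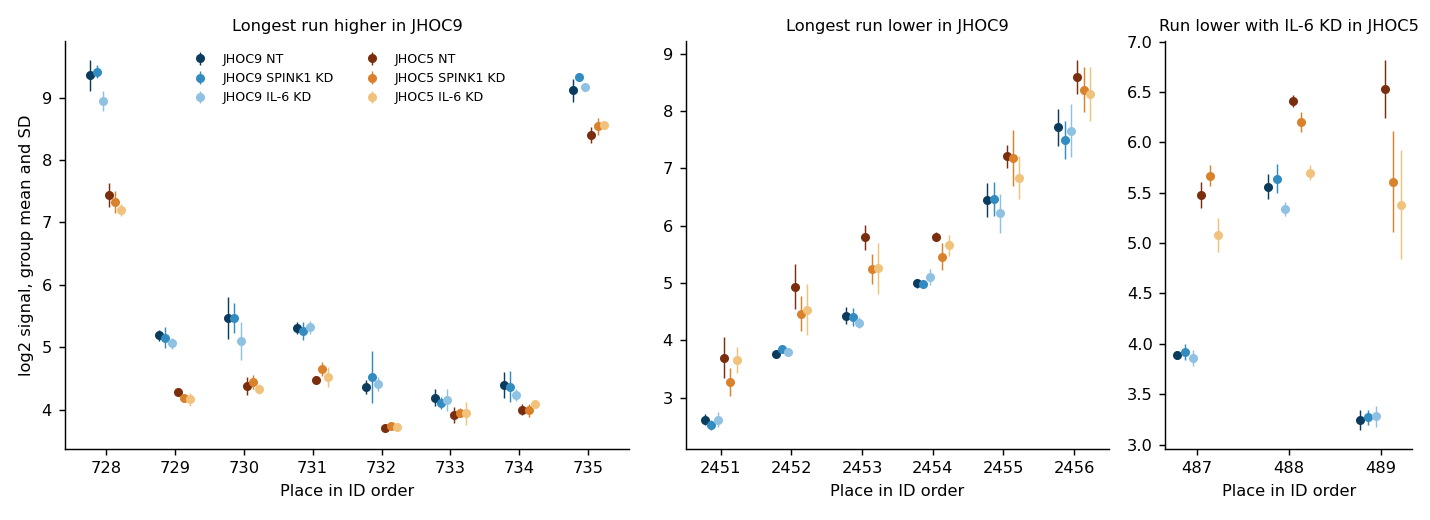
Group means of log2 signal with their SD (vertical axis) for the clusters of 3 runs by place in ID order (horizontal axis), in the 6 groups. In the first run every JHOC9 mean lies above every JHOC5 mean, and in the second every JHOC9 mean lies below. In the third JHOC5 lies above JHOC9 and drops on the IL-6 KD arrays. The last cluster of the third run, at place 489, was also called lower on the JHOC5 SPINK1 KD arrays.

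The SPINK1 KD virus changed 204 members in JHOC5. Of these, 77 rose and 127 fell (limma, adjusted p under 0.05 over all clusters), which is 2.95% and 4.87% of the members, against 2.68% and 3.86% of all clusters. The median log2 change was 0.37 for the rises and -0.48 for the falls. At least 2-fold, 1 rose and 12 fell, against 0.0290% and 0.411% of all clusters. Code 08 ranked 3 of 22 by its share called, 7.83%, among shares from 3.95% to 9.20%. Centring each array on its median gave 44 rises and 125 falls, cyclic loess 50 and 132, and leaving out JHOC5 SPINK1 KD replicate e 43 and 87. These counts are given without those of all clusters.

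TC08001086.hg.1 and TC08000196.hg.1 had the largest falls. TC08001086.hg.1 read 8.62, 8.36, 8.44, 8.61 and 8.46 on the JHOC5 NT arrays and 7.03, 6.66 and 6.35 on the SPINK1 KD arrays, a log2 change of -1.82 ± 0.10 (SE, limma adjusted p of 5.97e-10). TC08000196.hg.1 read 7.91, 7.55, 7.88, 7.72 and 7.70 with NT and 6.52, 6.10 and 5.83 with the SPINK1 KD virus, a change of -1.60 ± 0.13 (limma adjusted p of 4.40e-08). In both, all 3 SPINK1 KD arrays lay below all 5 NT arrays, and replicate e lay lowest. With the IL-6 KD virus they read 8.45, 8.46 and 8.54, and 7.46, 7.65 and 7.81, inside the range of the NT arrays for the first and reaching just under it for the second. In JHOC9 both started lower, at 6.28 ± 0.08 and 6.04 ± 0.17 (SD, n = 5) with NT, against 6.68 ± 0.34 and 6.15 ± 0.34 (SD, n = 3) in JHOC5 with the SPINK1 KD virus. Their JHOC9 changes, none of them called, were -0.30 and -0.23 with the SPINK1 KD virus and -0.30 and -0.30 with the IL-6 KD virus. On the SPINK1 KD arrays TC08001086.hg.1 was still lower in JHOC9, by -0.70 ± 0.11 (SE, limma adjusted p of 6.01e-05). For TC08000196.hg.1 that difference was -0.34 ± 0.14 (limma adjusted p of 0.102).

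TC08001051.hg.1 and TC08001572.hg.1 had the largest rises. TC08001051.hg.1 read 8.12, 8.29, 8.30, 8.20 and 8.28 with NT and 9.52, 9.61 and 9.98 with the SPINK1 KD virus in JHOC5, a log2 change of 1.47 ± 0.12 (SE, limma adjusted p of 6.61e-08). Its JHOC9 NT arrays were already at 8.90 to 9.50. TC08001572.hg.1 was dim, at 3.69, 3.64, 3.58, 3.49 and 3.67 with NT and 4.0, 4.87 and 4.70 with the SPINK1 KD virus, a change of 0.91 ± 0.15 (limma adjusted p of 0.000368). All its NT values lay under the array medians, so the filter on dim clusters removed it. It was the last of 3 called neighbours at places 1546 to 1548, the only run in this comparison, with changes of 0.34, 0.29 and 0.91. That is 0.384 runs per 1000 members, against 0.598 per 1000 clusters of the other autosome codes. Centring, cyclic loess and the filter on dim clusters each left 0 runs, as did leaving out JHOC5 NT replicate b, c or d or SPINK1 KD replicate d or e, while without SPINK1 KD replicate c there were 2. Rises fell in 40 blocks and falls in 47, and 68 rises and 103 falls had no neighbour called in the same direction. These counts are not set beside other codes. Over all members, the changes of neighbouring clusters correlated at r = 0.132, rank 4 of 22 codes, whose values ran from 0.03 to 0.22.

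In JHOC9 no member passed the test with the SPINK1 KD virus. With limma, 0 were called in either direction, against 0.0137% of all clusters higher and 0.0702% lower. The smallest adjusted p among the members was 0.103, and 142 of them, 5.45%, had an unadjusted p under 0.05, against 4.95% of all clusters. With the replicate block, which pairs these arrays by letter, 1 member was called lower. Array weights called 121 members, 66 higher and 55 lower. That fit gave SPINK1 KD replicate b a weight of 6.46 and replicates a and c weights of 0.594 and 0.419. The share of all clusters called in that fit is not given here, so these counts describe the members only.

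The clusters called in JHOC5 were then read in JHOC9, whose arrays are separate. Of the 77 JHOC5 rises 52 had a change of the same sign in JHOC9, and of the 127 falls 102 had, which is 67.5% and 80.3%, against 81.9% and 82.1% over all clusters called in JHOC5. Their median changes in JHOC9 were 0.06 and -0.09, beside 0.37 and -0.48 in JHOC5, where the size of the change chose them. A test of the difference between the lines called 43 members: for 37 the change was higher (less negative) in JHOC9 and for 6 it was lower, against 1.03% and 0.214% of all clusters, where the members had 1.42% and 0.230%. The 37 had changes from -1.82 to -0.30 with a median of -0.68 in JHOC5, and from -0.32 to 0.25 with a median of -0.08 in JHOC9. For the 6, JHOC5 changes ran from 0.57 to 1.47 and JHOC9 changes from -0.19 to 0.32. The 37 had a median NT log2 signal of 7.12 in JHOC5 and 5.96 in JHOC9. The same NT arrays entered the test that chose the 37, and that choice favours such a gap. The part of the level in the difference was not tested. The count of 43 was 28 without JHOC9 SPINK1 KD replicate b, 23 without JHOC5 SPINK1 KD replicate d and 23 without its replicate e.

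**Figure D5:**
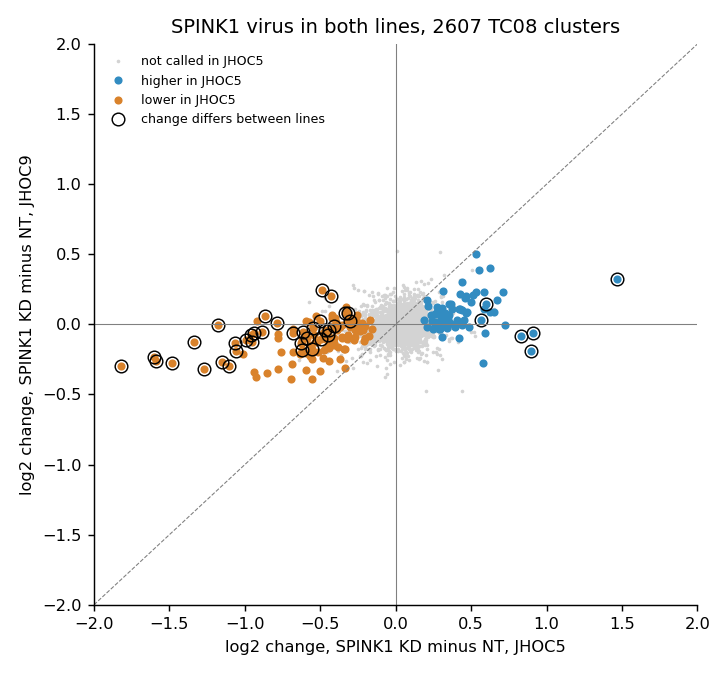
Log2 change with the SPINK1 KD virus against NT in JHOC5 (horizontal axis) and in JHOC9 (vertical axis), 1 point per TC08 cluster, coloured by the call in JHOC5, with the 43 clusters whose change differed between the lines circled and a dashed line of equal change. JHOC5 changes reach from -1.82 to 1.47 while the same clusters stay between -0.48 and 0.52 in JHOC9.

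With the IL-6 KD virus 47 members were called in JHOC5 and 6 in JHOC9. In JHOC5, 12 rose and 35 fell, 0.460% and 1.34% of the members, against 0.435% and 0.954% of all clusters (limma). Median log2 changes were 0.48 and -0.42. The count of 47 was 31 without JHOC5 NT replicate e, 26 without JHOC5 IL-6 KD replicate a, where 13 rose and 13 fell, and 30 without JHOC5 IL-6 KD replicate c. In JHOC9, on separate arrays, 33 of the 35 falls and 11 of the 12 rises had the same sign, which is 94.3% and 91.7%, against 88.8% and 73.3% over all clusters called in JHOC5. Their median changes in JHOC9 were -0.21 and 0.11, against -0.21 and 0.04 over all such clusters. This comparison shares its NT arrays with the SPINK1 comparison in JHOC5, so values for a cluster in both are given side by side without reading an overlap.

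TC08001062.hg.1 and TC08001051.hg.1 had the largest rises with the IL-6 KD virus. TC08001062.hg.1 read 6.48, 6.30, 6.64, 6.50 and 6.69 on the JHOC5 NT arrays and 7.94, 7.54 and 8.0 on the IL-6 KD arrays, a log2 change of 1.31 ± 0.13 (SE, limma adjusted p of 4.15e-06). With the SPINK1 KD virus it read 7.20, 7.30 and 7.08, a change of 0.67 ± 0.13. TC08001051.hg.1 read 8.92, 8.76 and 9.01 with the IL-6 KD virus, all above its NT arrays, a change of 0.66 ± 0.12 (limma adjusted p of 0.00567).

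TC08000500.hg.1 and TC08000479.hg.1 had the largest falls with the IL-6 KD virus. TC08000500.hg.1, one of the members that set the lines apart, read 5.04, 5.09 and 6.0 on the JHOC5 IL-6 KD arrays, a log2 change of -1.15 ± 0.20 (SE, limma adjusted p of 0.00311). Replicate c at 6.0 was close to the lowest NT array at 6.12, and with the compared groups alone the limma adjusted p was 0.0624. With the SPINK1 KD virus it read 6.13, 5.57 and 5.14, a change of -0.92 ± 0.20 (limma adjusted p of 0.00533), so it was called lower with both viruses. Replicate c, at 6.13, lay just above that lowest NT array. TC08000479.hg.1 read 7.70, 7.76, 7.73, 7.89 and 7.69 with NT and 6.78, 7.03 and 6.96 with the IL-6 KD virus, a change of -0.83 ± 0.08 (limma adjusted p of 2.05e-06). With the SPINK1 KD virus TC08000479.hg.1 read 7.24, 7.18 and 7.14, all below its NT arrays, a change of -0.57 ± 0.08 (limma adjusted p of 3.78e-05). TC08000500.hg.1 closed a run of 3 called neighbours at places 487 to 489, with changes of -0.40, -0.70 and -1.15, the only run among the members in this comparison. The other autosome codes together held 2 runs, or 0.0332 per 1000 clusters, against 0.384 per 1000 members. The rate of the members rests on this single run, which was not recomputed under other settings. With the compared groups alone TC08000500.hg.1 lost its call, so places 487 to 489 were not all called there. Places 487 to 489 lie in a run of 4, 487 to 490, that was lower in JHOC9 on the NT arrays. Both comparisons use the JHOC5 NT arrays, so this match is partly built in. The run of 4 was also called lower in JHOC9 on the SPINK1 KD arrays, which neither comparison uses, and on the IL-6 KD arrays.

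In JHOC9 the IL-6 KD virus lowered 6 members and raised 0, against 0.201% and 0.0412% of all clusters (limma), so the share of 0.230% lower members is near the background. TC08001886.hg.1 read 6.67, 6.72, 6.52, 6.48 and 6.46 with NT and 5.91, 6.02 and 5.83 with the IL-6 KD virus, a log2 change of -0.65 ± 0.12 (SE, limma adjusted p of 0.0222). TC08001926.hg.1 read 5.41, 5.81, 5.34, 5.32 and 5.12 with NT and 5.04, 4.75 and 4.65 with it, a change of -0.58 ± 0.12 (limma adjusted p of 0.0498). The NT and knockdown arrays do not overlap, though for TC08001926.hg.1 the lowest NT array, at 5.12, is close to the highest knockdown array, at 5.04. In JHOC5 their changes were -0.27 and -0.14, with limma adjusted p of 0.461 and 0.824. Of 17 alternative settings, 5 lost the call of TC08001886.hg.1 and 11 that of TC08001926.hg.1. The other 4 falls, at places 282, 468, 682 and 1574, were called lower in JHOC5 too. These 4 of 6 are 66.7%, near the 65.9% over all clusters lowered in JHOC9. TC08000479.hg.1, at place 468, fell by 0.83 in JHOC5 and by 0.45 in JHOC9. The count of 6 was 0 without JHOC9 IL-6 KD replicate e, 1 without NT replicate a or b, 2 without NT replicate c, and 3 without NT replicate e or IL-6 KD replicate b.

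The test of the IL-6 change between the lines called 1 member lower and 0 higher, against 0.00153% of all clusters in each direction, which is 1 cluster each. TC08001062.hg.1 rose in JHOC5 and read 7.22, 7.11 and 7.43 with the IL-6 KD virus in JHOC9, inside the NT range of 6.88 to 7.38 for all but the last. The difference of its changes was -1.23 ± 0.18 (SE, JHOC9 minus JHOC5, limma adjusted p of 0.0398), and 0 members were called in this test with the compared groups alone, with centred arrays, after cyclic loess, or without any 1 of 12 of the 16 arrays it uses. An unadjusted p under 0.05 in it was found for 176 members, 6.75%, against 6.67% of all clusters.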

How the data were processed

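Per the labels, 200 ng of total RNA per sample was used as input for GeneChip Human Transcriptome Array 2.0 chips. The submitters' processing notes name RMA; neither its version nor the annotation is given in the sources used here. In the series matrix, the deposited log2 values are signals from which the cluster's own median was subtracted (largest deviation 2.06e-06). The deposited intensity values, 2.81 to 15242, are their linear form before that centring, and log2 of them was used. RMA brings arrays close to a common distribution (sorted log2 values differed by up to 0.423 between arrays), so a shift in total RNA would not show.

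All 22 arrays entered 1 model of 6 group means in limma 3.58.1 (R 4.3.3; files read with data.table version 1.17.8, figures with matplotlib 3.10.9 under Python 3.11.15), with 16 residual degrees of freedom and 4.22 from the prior. The 9 contrasts were tested two-sided with Benjamini-Hochberg adjustment over 65526 clusters at 0.05, and the method was tested on simulated data. The number of arrays limits precision.

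The members and lists were chosen with earlier results of these data known. Named clusters are the 2 largest rises and 2 largest falls of each knockdown comparison and of the NT line comparison, among called members whose arrays do not overlap between the groups, plus the longest run in each direction.

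Same-lettered arrays were taken as paired where every pair's deviations correlated above 0.1, which held for the SPINK1 comparison in JHOC9 (r of 0.203 to 0.432) and not in JHOC5 (0.0638 to 0.369). The pairing comes from the letters in the titles and from this check. Reported values come from the model without a block, and the blocked count is given beside that result. Alternatives covered a replicate block, the groups in the fit, a dim filter, normalization, eBayes options, array weights, repeated clusters, a 1.5-fold minimum and each array left out.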

Additional observations from a re-analysis of the deposited data

Results flagged for a closer look

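The change with the SPINK1 virus differed between the lines, by limma's test of the difference, for 43 TC08 clusters, and the change with the IL-6 virus for 1. Among the named clusters, the difference (JHOC9 minus JHOC5, log2) was 1.52 ± 0.14 (SE) for TC08001086.hg.1, with an adjusted p of 1.27e-05, and 1.37 ± 0.18 for TC08000196.hg.1, with 0.000363. It was -1.145 ± 0.17 for TC08001051.hg.1, with an adjusted p of 0.0011, and -0.975 ± 0.21 for TC08001572.hg.1, with 0.0218, all by limma. For the IL-6 virus it was -1.231 ± 0.18 for TC08001062.hg.1.

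JHOC9 NT replicate d read 3.97 on the log2 scale for TC08001572.hg.1, apart from the other 4 NT arrays of that line, at 3.49 to 3.61. It was the only outlying array in 48 such checks of groups of 5, of which chance would mark about 1 in 20.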

How the results depend on the processing

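Counts and runs of called clusters were recomputed under 199 combinations of result and setting, and 141 stayed within 1.5 times the reported value. The calls of the named clusters held in 228 of 245, were lost in 17, of which 16 concern the IL-6 falls in JHOC9, and none reversed. Causes were not tested, and counts of members under other settings are not set beside those of all clusters. With array weights the counts were 121 and 310 for the SPINK1 virus in JHOC9 and JHOC5, 136 for the IL-6 virus in JHOC5, and 170 and 14 for the differences of the SPINK1 and IL-6 effects between lines. A minimum of 1.5-fold left 56 for the SPINK1 virus and 9 for the IL-6 virus in JHOC5, 1 for the IL-6 virus in JHOC9, 25 for the SPINK1 difference, and 355, 354 and 340 for the lines in the NT, SPINK1 KD and IL-6 KD arrays. With the compared groups alone the IL-6 counts were 0 in JHOC9, 22 in JHOC5 and 0 for their difference. Centring arrays on their median gave 3, 27 and 0 for the same results, and cyclic loess gave 2 in JHOC9 and 0 for the difference. The trend and robust options of eBayes gave 3 in JHOC9. The run with the SPINK1 virus in JHOC5 was lost (0 runs) with the dim filter, centring, cyclic loess and a minimum of 5 clusters, a minimum that left 6 runs between the lines in NT.

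With the replicate block, 1 TC08 cluster passed for the SPINK1 virus in JHOC9, and no other count moved by over 1.5 times: it was 256 and 45 for the SPINK1 and IL-6 viruses in JHOC5. The NT arrays of both lines share experiment letters, and their blocked count was 855 against 862. The other comparisons share only a replicate letter.

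Leaving out each array in turn gave 0 to 5 for the IL-6 virus in JHOC9, 130 to 194 for SPINK1 and 26 to 48 for IL-6 in JHOC5, 23 to 55 and 0 to 1 for the SPINK1 and IL-6 differences, 0 to 2 runs with the SPINK1 virus in JHOC5, 801 to 842 for the lines in NT, 600 to 663 with SPINK1 KD and 616 to 812 with IL-6 KD, and 54 to 67 runs in NT. In the dimmest class 13.9% of members were called between the lines in NT, and whether low signal limits those calls was not tested.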
